A study of Mus musculus with 7 samples.

Results

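The 38 genes described here encode the machinery that copies DNA and the factors that start S phase, the stage of the cell cycle in which the genome is replicated. They were chosen by name and role, with earlier results of these data known, so counts of them serve as description. All 38 were among the 54735 gene symbols of the count table and among the 17636 genes that passed the filter on low counts. RNA was sequenced from cardiac fibroblasts that carried a genetic mark and had been sorted from mouse hearts. Postn P7 (n = 2 libraries) was of genotype PostnMCM;R26eGFP at 7 days of age, Tcf21 P30 (n = 3) of genotype Tcf21MCM;R26eGFP at 30 days and Tcf21 P7 (n = 2) of genotype Tcf21MCM;R26eGFP at 7 days. In each line a tamoxifen-activated recombinase switched on a green reporter, under Postn, the periostin gene, in 1 line and under Tcf21, a transcription factor gene, in the other, and green cells were collected by fluorescence-activated sorting. All 3 groups thus carried a MerCreMer allele and the R26eGFP reporter, and all were pooled from male and female animals. A cell stays marked after the driver gene is shut off. The labels used here do not give the time of tamoxifen.

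Replication begins when the origin recognition complex, CDC6 and CDT1 load the ring-shaped MCM2-7 complex onto DNA. In S phase CDC45 and the GINS complex turn this ring into an active helicase, and polymerases copy both strands while the clamp PCNA holds them on the template. Many of these genes are switched on together in late G1 by E2F transcription factors once cyclin-dependent kinases have inactivated the retinoblastoma protein. Cardiac fibroblasts are known to divide around birth and to become largely quiescent in the adult heart.

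Libraries held 15207835 to 18519528 counts, of which the 38 genes took between 12634 and 29577 per library. Levels are given as normalised CPM, the count scaled to library size with TMM factors. The 10 fibroblast markers were detected in all 7 libraries, among them Col1a1 (4536 to 10707 CPM) and Pdgfra (660 to 1306 CPM). Transcripts of other cell types were present as well, with 12 endothelial markers summing to 4492 CPM in replicate 1 of Tcf21 P30 and to 1271 to 1938 CPM in the other 6 libraries. The labels do not say whether libraries came from separate animals or litters, so the p-values reflect only how much these libraries vary, which may be technical in part. A fall in a bulk level can come from fewer cells of a type or from less RNA per cell, and these cannot be told apart here.

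Promoters of the genes are shown first. RefSeq windows in GRCm38.p6 were available for 32 of the 38 genes, and the 250 bases before each start were searched on both strands for the E2F letters TTTCCCGC, TTTCGCGC, TTTGCCGC or TTTGGCGC and for CCAAT, the letters known from NF-Y. The E2F letters were found for 8 of the 32 genes (25%), against 583 of 27025 genes with a window (2.16%). The 27025 include genes that did not pass the filter on low counts, which all 38 genes passed, so the sets are unlike. CCAAT was found for 18 of the 32 (56.2%), against 37.5% of all genes with a window, and no E2F match overlapped a CCAAT match. The 8 genes were Orc1, Cdc6, Mcm5, Mcm6, Mcm7, Pola1, Rfc3 and Uhrf1. For 3 of them the single RefSeq window lies outside the gene as GENCODE M21 annotates it, and these promoters are shown because they hold the letters, 5′ to 3′, with E2F and CCAAT matches in capitals.
Mcm5 (chr8:75109259-75109508, forward strand): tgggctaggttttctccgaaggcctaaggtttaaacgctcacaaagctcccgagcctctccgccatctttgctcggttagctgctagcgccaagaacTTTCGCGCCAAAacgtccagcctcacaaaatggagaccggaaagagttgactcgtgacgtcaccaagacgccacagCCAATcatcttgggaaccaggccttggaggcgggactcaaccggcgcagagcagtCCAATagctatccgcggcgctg
Mcm6 (chr1:128359706-128359955, reverse strand): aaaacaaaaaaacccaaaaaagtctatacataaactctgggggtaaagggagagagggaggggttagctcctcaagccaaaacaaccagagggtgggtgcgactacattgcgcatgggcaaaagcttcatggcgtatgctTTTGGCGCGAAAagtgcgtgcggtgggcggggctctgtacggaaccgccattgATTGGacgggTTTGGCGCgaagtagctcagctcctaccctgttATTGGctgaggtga
Pola1 (chrX:93632156-93632405, reverse strand): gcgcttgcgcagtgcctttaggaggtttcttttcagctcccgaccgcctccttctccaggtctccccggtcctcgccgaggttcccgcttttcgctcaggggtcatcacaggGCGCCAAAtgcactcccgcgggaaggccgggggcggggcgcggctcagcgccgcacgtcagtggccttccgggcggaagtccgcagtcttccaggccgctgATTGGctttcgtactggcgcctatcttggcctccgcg
A match is a description of letters and does not show binding. In the change with age described next, the 8 genes with E2F letters had a median log2 change of -1.17 (range -2.44 to -0.38) and the 24 without them -1.08 (range -2.55 to -0.15). A link between the letters and the change was not tested, and Orc1 and Pola1, which hold them, were not called with age.

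**Figure D1:**
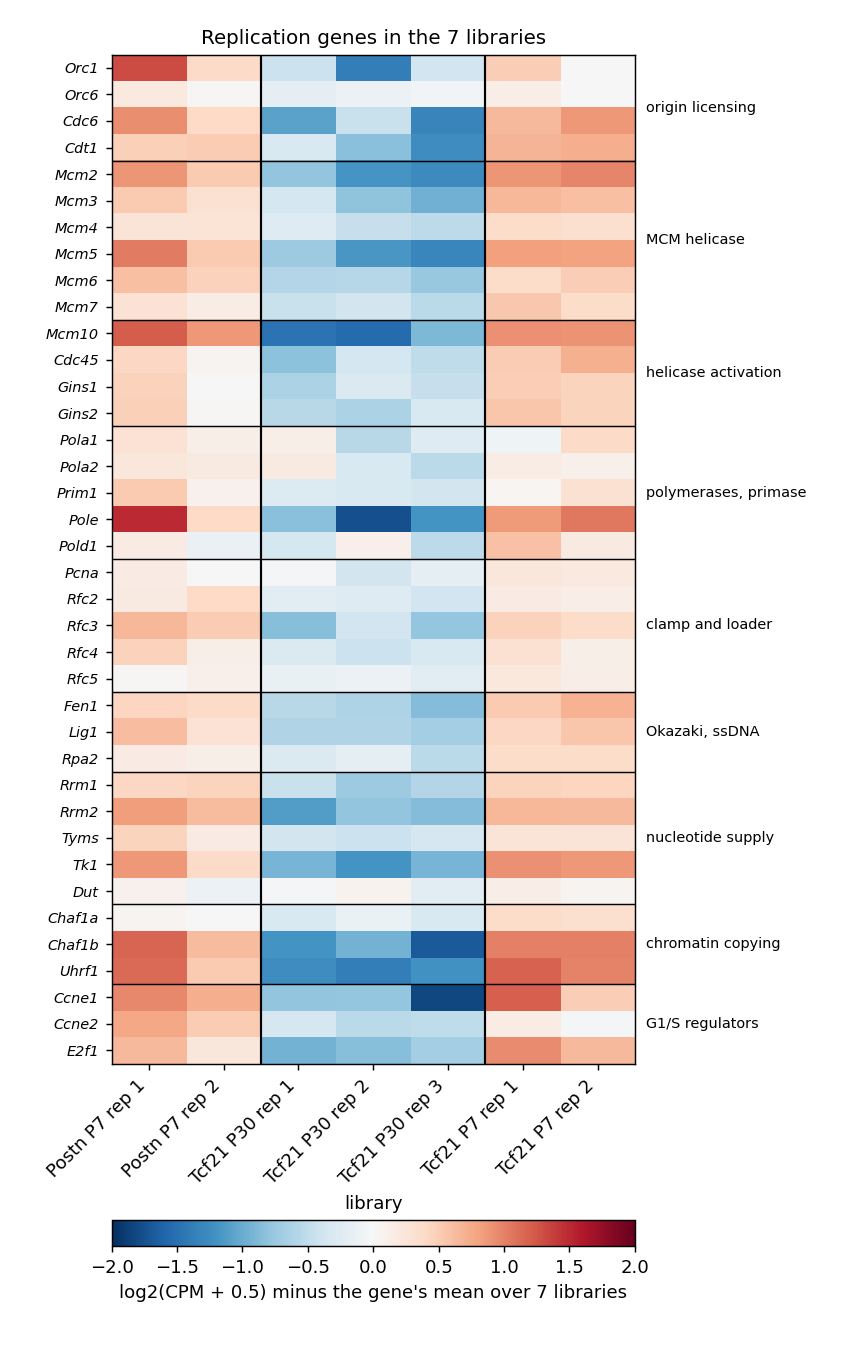
Level of each of the 38 replication genes (rows, ordered by role) in the 7 libraries (columns), as log2(CPM + 0.5) minus the mean of that gene over the 7 libraries. Red cells are above that mean and blue cells below it. The 3 Tcf21 P30 libraries are blue for most genes, whereas the Postn P7 and Tcf21 P7 libraries are mostly red, and Orc6 and Dut differ little between libraries.

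The comparison of Tcf21 P30 with Tcf21 P7 asked how the marked fibroblasts changed between 7 and 30 days of age. Of the 38 replication genes 31 were lower at P30 and none was higher, by edgeR's quasi-likelihood test with Benjamini-Hochberg adjustment over all genes tested. Of all genes tested 15% were lower and 16.7% higher (31.8% in either direction). The number of all genes called fell by more than 1.5 times, to 2442 and 2418, without Tcf21 P7 replicate 1 and replicate 2, against 5604 with both. The median log2 change of the 38 genes was -1.06, that is 2.09-fold lower, against 0.03 over all genes tested. The 38 genes together summed to 844, 801 and 748 CPM in Tcf21 P30 and to 1562 and 1529 CPM in Tcf21 P7. For 35 of the genes every Tcf21 P30 library lay below both Tcf21 P7 libraries, as did 29.9% of all genes. The fall exceeded 4-fold for 6 called genes (Mcm2, Mcm10, Pole, Chaf1b, Uhrf1 and Ccne1) and 2-fold for 21, and it was below 2-fold for the other 10.

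Among the licensing factors, Cdc6, which loads the MCM ring at origins, fell. It stood at 2.78, 4.57 and 2.25 CPM in Tcf21 P30 against 10.2 and 12 CPM in Tcf21 P7 (log2 change -1.80 ± 0.31 SE, adjusted p = 0.0039). Its partner Cdt1 fell too (-1.55 ± 0.27). Orc6, a subunit of the origin recognition complex and the most expressed gene of this role, did not pass the test (-0.18 ± 0.11, adjusted p = 0.25). Its values were 24.3, 25.3 and 26.5 CPM in Tcf21 P30 against 30.1 and 27.5 CPM in Tcf21 P7, so the groups were separate but close. Orc1, another subunit of that complex, was low throughout at 0.948 ± 0.492 CPM (SD, n = 3) in Tcf21 P30 and 2.26 ± 0.664 CPM (SD, n = 2) in Tcf21 P7, and its change of -1.24 ± 0.54 did not pass (adjusted p = 0.11). It was called lower in 3 of the 16 alternatives.

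All 6 MCM subunit genes fell. Mcm2 (chromosome 6, 88883474 to 88898780 in GRCm38) stood at 23.4, 17.7 and 16.6 CPM in Tcf21 P30 against 75.6 and 80.5 CPM in Tcf21 P7 (-2.02 ± 0.17, adjusted p = 0.00013). Mcm6 (chromosome 1, 128331590 to 128359664) had the highest mean CPM per kilobase of transcript of the 38 genes in Tcf21 P7 (47.9) and stood at 69.0, 69.4 and 61.1 CPM in Tcf21 P30 against 133 and 145 CPM in Tcf21 P7 (-1.07 ± 0.10, adjusted p = 0.0002). In neither gene did the groups overlap. Mcm5 fell by 1.89 ± 0.20 and Mcm3 by 1.33 ± 0.17 on the log2 scale, Mcm7 by 0.91 ± 0.10 and Mcm4 by 0.75 ± 0.10. Subunits of 1 ring thus had falls of 1.69-fold (Mcm4) to 4.07-fold (Mcm2), and the differences between them were not tested.

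The 4 genes that activate the helicase fell as well. Mcm10, an initiation factor that binds the loaded ring (chromosome 2, 4989714 to 5012791), had the most negative log2 change of the 38 genes. It stood at 1.01, 0.951 and 1.76 CPM in Tcf21 P30 against 7.39 and 7.33 CPM in Tcf21 P7 (-2.55 ± 0.30, adjusted p = 0.00067). Gins2, a GINS subunit, stood at 12.9, 12.2 and 15.4 CPM in Tcf21 P30 against 28.2 and 26.1 CPM in Tcf21 P7 (-1.01 ± 0.17, adjusted p = 0.0037). Gins2 has 67.3% of its exon bases shared with exons of Gse1 on the other strand, and without a known strand setting reads of both genes cannot be told apart. Cdc45 (-1.22 ± 0.20), a helicase subunit, and Gins1 (-1.05 ± 0.26) fell as well. Gins1 lost its call without either Tcf21 P7 library, without Tcf21 P30 replicate 3 and with a replicate block.

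**Figure D2:**
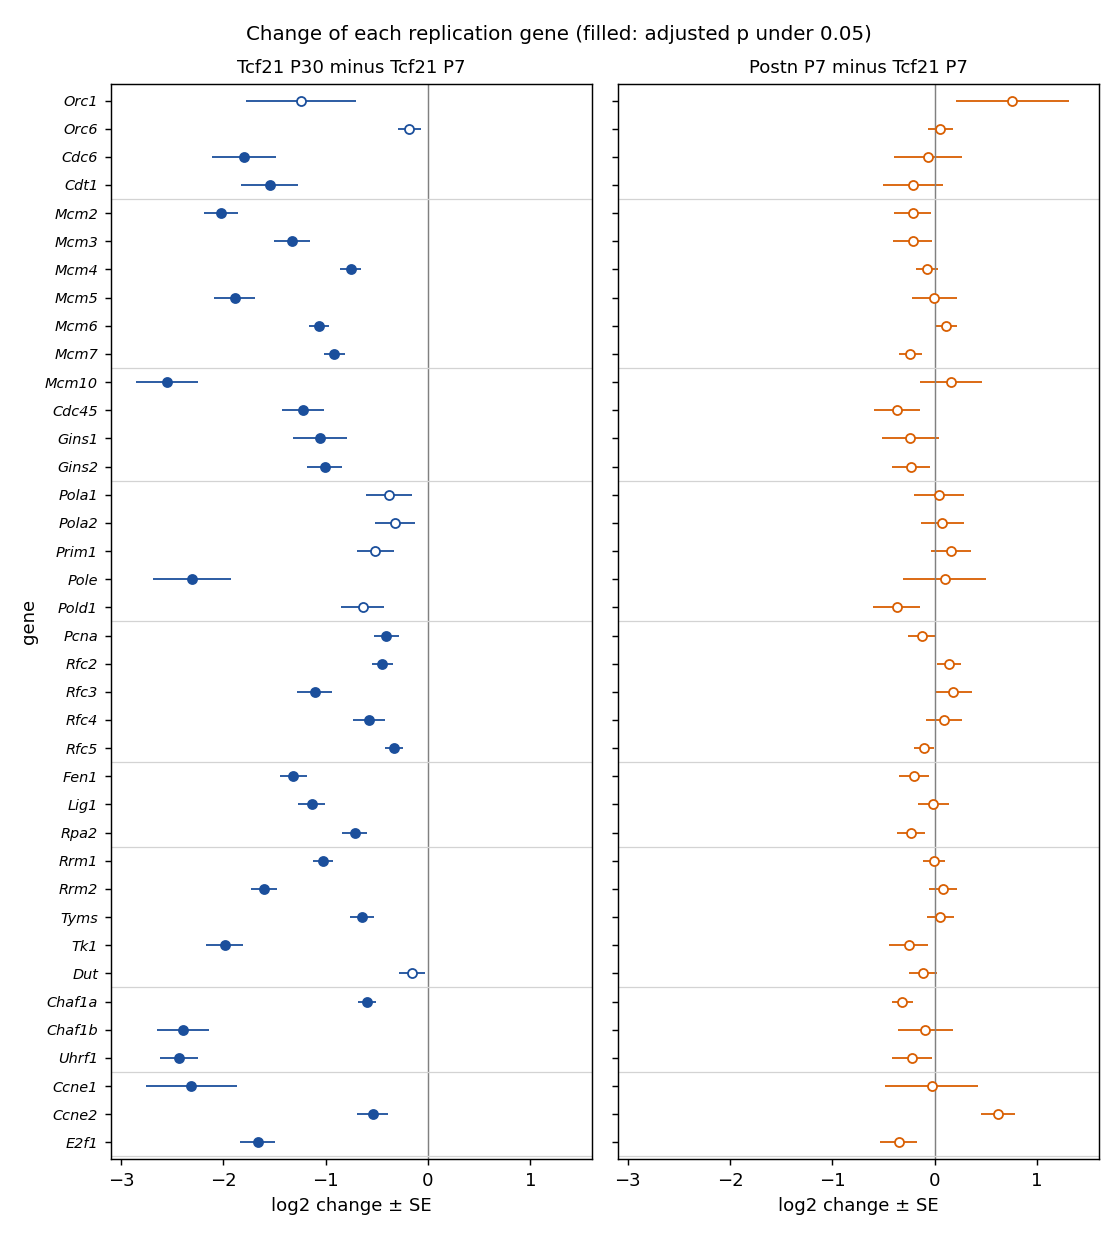
Log2 change of each of the 38 replication genes (rows, in the same order by role) with its standard error, in Tcf21 P30 minus Tcf21 P7 (left, blue) and Postn P7 minus Tcf21 P7 (right, orange). Filled circles passed an adjusted p of 0.05, which 31 genes did on the left and none on the right. All changes on the left are below 0.

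Of the polymerase and primase genes 1 of 5 fell. Pole, the catalytic subunit of polymerase epsilon, which copies the leading strand, stood at 5.24, 2.54 and 3.96 CPM in Tcf21 P30 against 17.9 and 20.8 CPM in Tcf21 P7 (-2.30 ± 0.38, adjusted p = 0.0046). Pold1, the catalytic subunit of polymerase delta on the lagging strand, missed the threshold narrowly, with 29.5, 40.5 and 26.1 CPM in Tcf21 P30 against 56.9 and 42.7 CPM in Tcf21 P7 (-0.64 ± 0.21, adjusted p = 0.054). Prim1, the primase subunit that makes RNA primers, also lay just outside, at 9.59, 9.39 and 9.01 CPM in Tcf21 P30 against 12 and 14.6 CPM in Tcf21 P7 (-0.51 ± 0.18, adjusted p = 0.061). Each of these 2 genes was called lower in 4 of the 16 alternatives, Pold1 by DESeq2 and limma-voom among them. For Pola1 (-0.38 ± 0.23) and Pola2 (-0.32 ± 0.19), subunits of the polymerase that extends those primers, the groups overlapped. In Pola2 the highest Tcf21 P30 value, 38.6 CPM, came from replicate 1, the library rich in endothelial transcripts. Sums of macrophage, cardiomyocyte, erythroid, pericyte and epicardial markers were also highest of the group in that library, and the fibroblast sum was lowest. Whether any of this bears on Pola1 or Pola2 was not tested. Without replicate 1 of Tcf21 P30, Pola2 was called, and Pola1 was called without both libraries rich in endothelial transcripts.

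The clamp gene and the 4 loader genes fell. Pcna, the sliding clamp, was the called gene nearest the threshold, at 44.2, 34.9 and 39.9 CPM in Tcf21 P30 against 53.2 and 52.0 CPM in Tcf21 P7 (-0.41 ± 0.12, adjusted p = 0.034). Its groups were separate. Counts of the pseudogene Pcna-ps2 were 9 to 16 per library, against 550 to 962 for Pcna. Of the loader subunits, Rfc3 fell to 8.77, 12.4 and 9.34 CPM in Tcf21 P30 against 22.6 and 21.2 CPM in Tcf21 P7 (-1.11 ± 0.17, adjusted p = 0.0022). Rfc5 fell to 53.1, 54.3 and 50.6 CPM in Tcf21 P30 against 67.8 and 64.6 CPM in Tcf21 P7 (-0.33 ± 0.09, adjusted p = 0.021). Rfc2 (-0.45 ± 0.11) and Rfc4 (-0.58 ± 0.16) fell too. The calls of Pcna, Rfc2, Rfc4 and Rfc5 were lost without either Tcf21 P7 library and without Tcf21 P30 replicate 3, and those of Pcna and Rfc4 also without Tcf21 P30 replicate 2. Pcna was also lost when scaled by library size alone, Rfc2 and Rfc5 with a replicate block, and Rfc5 with no filter on low counts.

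The genes that process Okazaki fragments and bind single-stranded DNA all fell. Fen1, the nuclease that trims the flaps between fragments, stood at 15.5, 14.6 and 12.3 CPM in Tcf21 P30 against 33.1 and 37.2 CPM in Tcf21 P7 (-1.32 ± 0.13, adjusted p = 0.00031). The exons of Fen1 are largely shared with other annotated genes (84.2% of bases, with Gm10143 and Tmem258 on the other strand), so its counts are uncertain. Lig1, the ligase that joins the fragments, fell by 1.14 ± 0.14 on the log2 scale. Rpa2, a subunit of replication protein A, stood at 22.3, 23.9 and 18.7 CPM in Tcf21 P30 against 35.5 and 35.5 CPM in Tcf21 P7 (-0.72 ± 0.12, adjusted p = 0.0041).

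Nucleotide supply is represented by 5 genes, and 4 of them fell. Rrm1, the large subunit of ribonucleotide reductase, stood at 68.0, 55.7 and 61.9 CPM in Tcf21 P30 against 127 and 125 CPM in Tcf21 P7 (-1.02 ± 0.10, adjusted p = 0.00025). Its small subunit Rrm2, which is made in S phase, fell as well (-1.60 ± 0.13). Tk1, the thymidine kinase of dividing cells, stood at 6.50, 5.33 and 6.48 CPM in Tcf21 P30 against 24.6 and 23.8 CPM in Tcf21 P7 (-1.98 ± 0.18, adjusted p = 0.0002). Tyms, which makes thymidylate, fell by 0.64 ± 0.12 on the log2 scale and lost its call without either Tcf21 P7 library. Dut, the enzyme that removes dUTP, did not pass (-0.15 ± 0.13, adjusted p = 0.39), with overlapping values of 26.6, 28.5 and 23.2 CPM in Tcf21 P30 and 29.8 and 28.2 CPM in Tcf21 P7.

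The 3 genes that copy chromatin behind the fork fell. Uhrf1, which brings the maintenance DNA methyltransferase to new DNA (chromosome 17, 56303321 to 56323486), stood at 7.89, 7.04 and 8.02 CPM in Tcf21 P30 against 44.2 and 38.7 CPM in Tcf21 P7 (-2.44 ± 0.19, adjusted p = 0.0001). Chaf1b, a subunit gene of chromatin assembly factor 1, fell by 2.39 ± 0.26 on the log2 scale. Its partner Chaf1a stood at 58.4, 66.0 and 58.2 CPM in Tcf21 P30 against 93.7 and 90.3 CPM in Tcf21 P7 (-0.60 ± 0.09, adjusted p = 0.0022). Exons of Chaf1a share 52.5% of their bases with Ubxn6, again on the other strand.

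The regulators of S-phase entry fell too. E2f1, an activating E2F, stood at 10.7, 11.5 and 12.9 CPM in Tcf21 P30 against 41.1 and 33.1 CPM in Tcf21 P7 (-1.66 ± 0.17, adjusted p = 0.00034). Ccne1, a cyclin that drives the G1/S step, stood at 1.64, 1.65 and 0.550 CPM in Tcf21 P30 against 7.96 and 4.67 CPM in Tcf21 P7 (-2.31 ± 0.44, adjusted p = 0.0063). The other E-type cyclin, Ccne2, stood at 10.8, 9.32 and 9.56 CPM in Tcf21 P30 against 15.3 and 13.4 CPM in Tcf21 P7 (-0.54 ± 0.15, adjusted p = 0.029). In each of the 3 genes the groups did not overlap, but Ccne1 lost its call without Tcf21 P7 replicate 1, and Ccne2 without either Tcf21 P7 library, without Tcf21 P30 replicate 2 or 3 and with a replicate block.

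**Figure D3:**
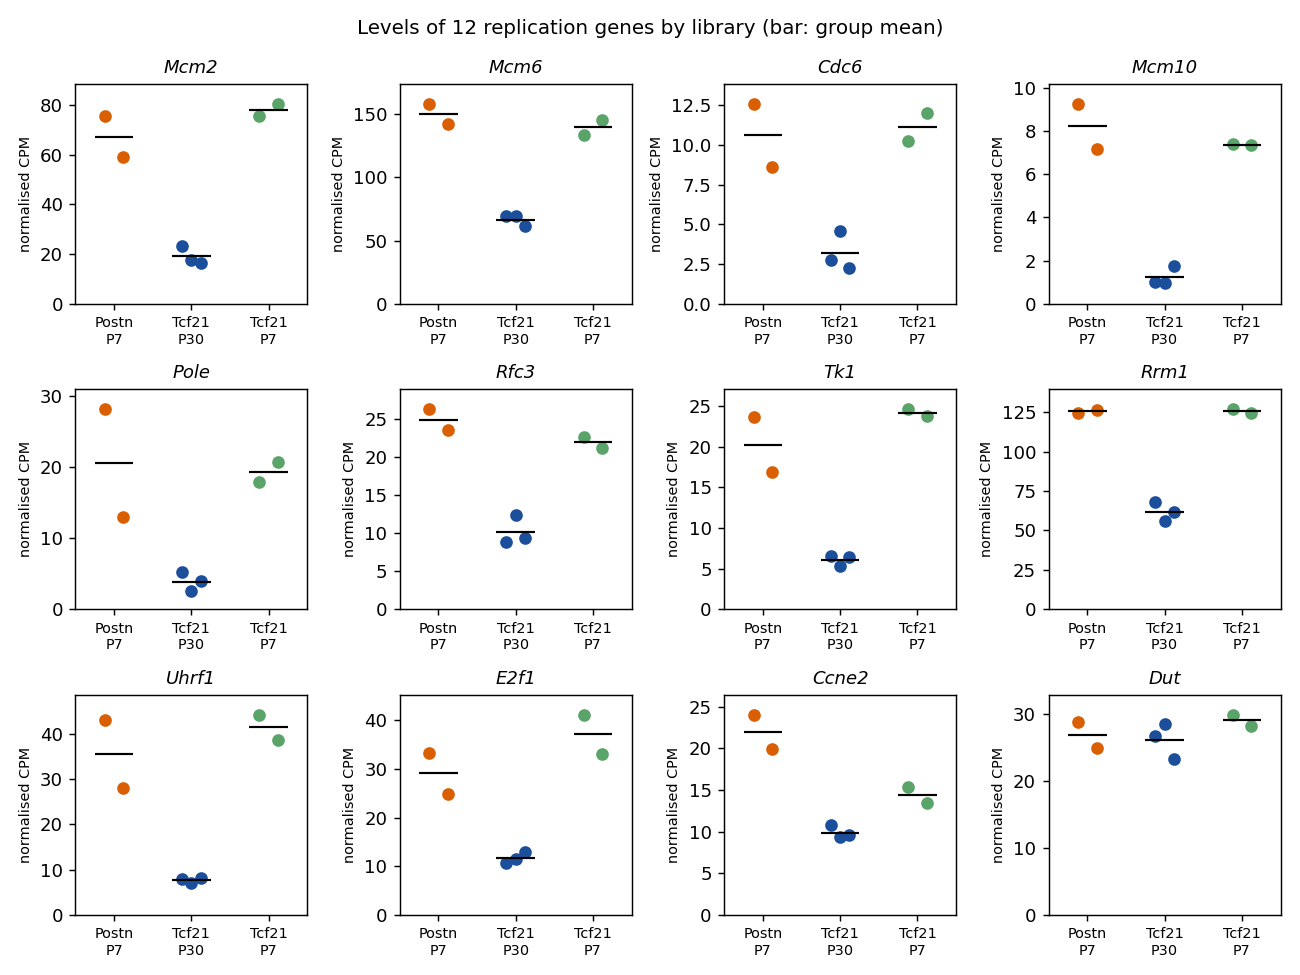
Normalised CPM of 12 replication genes in each library (points) with the mean of each group (bars), for Postn P7 (orange, n = 2), Tcf21 P30 (blue, n = 3) and Tcf21 P7 (green, n = 2). In 11 of the 12 panels the Tcf21 P30 points lie below all points of both other groups. Dut is the exception. The 12 genes were picked without a stated rule, so this count serves as description. Of all genes tested, 29.9% had every Tcf21 P30 library below both Tcf21 P7 libraries. For 24.7% every Tcf21 P30 library lay below both Postn P7 libraries. The share below both groups at once was not counted for all genes.

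Between the ages 15% of all genes tested were lower at P30 and 16.7% higher (31.8% in either direction). Of 42 further replication genes 13 were lower and 2 higher at P30, with a median log2 change of -0.22. Without Tcf21 P7 replicate 1, 8 were lower and 0 higher. Ticrr, which helps to fire origins (-2.54 ± 0.31), the histone chaperone Asf1b (-1.83 ± 0.23), Dscc1, a subunit of an alternative clamp loader (-1.71 ± 0.33), and the chromatin remodeller Hells (-1.59 ± 0.33) had the largest falls. The origin recognition subunits Orc3 (0.42 ± 0.09) and Orc4 (0.34 ± 0.09) were the 2 higher genes, and neither was called without either Tcf21 P7 library. Of 20 genes of nucleotide metabolism 6 were lower (2 without either Tcf21 P7 library) and 1 higher. In both lists calls in either direction were about as frequent as among all genes tested, with most of them lower. Dctd, a deaminase on the way to thymidylate, stood at 1.58, 2.09 and 2.75 CPM in Tcf21 P30 against 11 and 9.81 CPM in Tcf21 P7 (-2.27 ± 0.25). The higher gene was Rrm2b, the ribonucleotide reductase subunit that p53 induces and that serves non-dividing cells, at 30.5, 26.1 and 25.3 CPM in Tcf21 P30 against 12.8 and 13.4 CPM in Tcf21 P7 (1.05 ± 0.16, adjusted p = 0.0019).

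Over all genes tested, 15% were lower and 16.7% higher at P30. Upstream of replication, 13 of 25 genes of the E2F, retinoblastoma and G1 kinase network were lower at P30 and 2 were higher. Without Tcf21 P7 replicate 1, 6 were lower, without replicate 2, 8 were, and in both cases 0 were higher. Mybl2, a target and partner of this network, fell to 0.947, 1.33 and 1.1 CPM in Tcf21 P30, against 11.8 and 12.1 CPM in Tcf21 P7 (-3.40 ± 0.23, adjusted p = 6.1e-05). E2f8, a repressor made in S phase, changed by -2.97 ± 0.25. The retinoblastoma gene Rb1 (0.75 ± 0.17) and the growth regulator Myc (1.00 ± 0.29) were higher. The inhibitors of cyclin-dependent kinases moved both ways, with 2 of 6 tested genes higher and 2 lower. Cdkn1a, which encodes p21, stood at 143, 142 and 125 CPM in Tcf21 P30 against 47.1 and 46.6 CPM in Tcf21 P7 (1.55 ± 0.10, adjusted p = 5e-05), and Cdkn2b was higher as well (1.66 ± 0.29). Cdkn1c, the imprinted p57 gene, was lower (-1.50 ± 0.30), as was Cdkn2c (-0.52 ± 0.17), and neither was called without either Tcf21 P7 library. Cdkn1c was also lost with a replicate block. Cdkn2c kept its call in 10 of the 16 alternatives, and was also lost without Tcf21 P30 replicate 1 or 2 and when scaled by library size alone or by upper quartiles. Cdkn2a was too low to be tested. Of 24 mitosis genes 23 were lower, with a median of -1.51, among them Cdk1 (-2.64 ± 0.18), the kinase that drives mitosis, and the chromosome passenger gene Birc5 (-2.23 ± 0.21).

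Markers of several cell types were compared between the ages as well, where 15% of all genes tested were lower and 16.7% higher. The 13 macrophage markers summed to 640, 429 and 449 CPM in Tcf21 P30 against 1195 and 1207 CPM in Tcf21 P7, and 10 of them were called lower. In Postn P7 the same markers summed to 348 and 478 CPM. Here 10 of 13 were called lower than in Tcf21 P7, against 5.49% of all genes tested between the lines. Fewer of them were called without either Tcf21 P7 library. The 12 cardiomyocyte markers summed to 1006, 505 and 564 CPM in Tcf21 P30 against 1330 and 1215 CPM in Tcf21 P7, with 3 called lower (1 without either Tcf21 P7 library or without Tcf21 P30 replicate 3, 2 without Tcf21 P30 replicate 2 and 7 without Tcf21 P30 replicate 1, and 6 by DESeq2 and 8 with no filter). The 10 fibroblast markers summed to 27750, 34310 and 32100 CPM in Tcf21 P30 against 52220 and 52350 CPM in Tcf21 P7, with 4 called lower and 2 higher (0 higher without Tcf21 P7 replicate 1, and 1 without Tcf21 P7 replicate 2 or Tcf21 P30 replicate 2 or 3). The 7 erythroid markers summed to 621, 181 and 291 CPM in Tcf21 P30 against 506 and 482 CPM in Tcf21 P7, with overlapping groups. Of these markers 1 was called lower, and 4 were with no filter. The 1 call was lost without either Tcf21 P7 library and without Tcf21 P30 replicate 2 or 3. It was also lost with library size alone and with limma-voom. The 6 epicardial markers summed to 17.9, 1.97 and 1.92 CPM in Tcf21 P30 against 24.8 and 20.5 CPM in Tcf21 P7, with 0 called by edgeR or DESeq2 (1 without Tcf21 P30 replicate 1, 5 with no filter). The 7 Schwann cell and glial markers summed to 52.3, 47.4 and 49.7 CPM in Tcf21 P30 against 16.3 and 13.5 CPM in Tcf21 P7, with 2 of 5 tested called higher (1 without either Tcf21 P7 library). The 12 endothelial markers summed to 4492, 1371 and 1592 CPM in Tcf21 P30 against 1534 and 1348 CPM in Tcf21 P7. All 12 changes were positive (median 0.90), but 0 were called (1 by DESeq2, 1 without Tcf21 P30 replicate 1 and 11 with no filter). Without both libraries rich in endothelial transcripts, some of these changes were negative. Of 10 pericyte and smooth muscle markers 1 was called higher (0 without either Tcf21 P7 library, and 7 lower without Tcf21 P30 replicate 1). Of 5 tested lymphocyte markers 0 were called. The part of these lists in the fall of the replication genes was not tested. Of the markers searched, only Foxd3, a neural crest gene, was at 0 in all 7 libraries.

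At 7 days of age the lines were compared to see whether cells traced by periostin differed from Tcf21-traced cells. The comparison shares the Tcf21 P7 libraries with that of the ages. Of the 38 replication genes edgeR called 0, against 6.52% higher and 5.49% lower of all genes tested (12% in either direction). All calls were 118 and 111 without Tcf21 P7 replicate 1 and 2, against 2118 with all libraries. Leaving out Postn P7 replicate 1 or 2 gave 1106 or 507, and leaving out Tcf21 P30 replicate 1 or 3 gave 3250 or 1059. The 2118 calls split into 1149 higher and 969 lower, against 1741 and 472 when scaled by library size alone and 1187 and 647 with upper-quartile factors. DESeq2 called 0 of the 38 as well, and 2 of the 38 had an unadjusted p under the threshold, against 30.4% of all genes. Groups did not overlap for 13 genes lower and 4 higher in Postn P7, against 32.5% and 31.4% of all genes. The median log2 change was -0.07 (0.04 when scaled by library size alone), and single changes ran from -0.37 ± 0.23 for Pold1 to 0.76 ± 0.56 for Orc1. The genes together summed to 1564 and 1368 CPM in Postn P7 and to 1562 and 1529 CPM in Tcf21 P7. The standard error of Mcm6 was among the smallest of the 38 genes in this comparison. Values of 158 and 142 CPM were found in Postn P7, and of 133 and 145 CPM in Tcf21 P7, and the 95% interval of its log2 change of 0.11 ran from -0.14 to 0.35. Other genes had wider intervals, from -0.63 to 0.20 for Mcm2 and from -0.85 to 1.05 for Pole. For the low gene Orc1 it ran from -0.52 to 2.04. Sizeable differences were thus not detectable for several genes, and the lack of calls does not show equal levels.

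Ccne2 and Chaf1a lay nearest the threshold between the tracing lines. The 2 Postn P7 libraries had 24.1 and 20.0 CPM of Ccne2, and those of Tcf21 P7 15.3 and 13.4 CPM (0.61 ± 0.17, adjusted p = 0.0502), with no overlap. Of the exon bases of Ccne2 17.4% are shared with Ints8. It passed the threshold in 6 of the 16 alternative analyses, among them those with RLE or upper-quartile factors and with limma-voom. Chaf1a had 75.5 and 72.1 CPM in Postn P7 and 93.7 and 90.3 CPM in Tcf21 P7 (-0.32 ± 0.10, adjusted p = 0.077) and passed in none. The other genes varied within Postn P7, where replicate 1 was the higher library for 33 of the 38 genes, against 47.7% of all genes tested. In E2f1 the values were 33.3 and 24.8 CPM in Postn P7 and 41.1 and 33.1 CPM in Tcf21 P7, and in Uhrf1 they were 42.9 and 28.0 CPM in Postn P7 and 44.2 and 38.7 CPM in Tcf21 P7. Replicate 1 of Postn P7 also held more endothelial transcripts, 1938 against 1271 CPM in replicate 2. The same held for erythroid (370 against 68.9 CPM), epicardial (64.7 against 6.41 CPM) and cardiomyocyte markers (1320 against 706 CPM). It held for pericyte and smooth muscle markers as well (2654 against 1949 CPM). Fibroblast, macrophage, lymphocyte and Schwann cell markers were lower than in replicate 2. Whether any of this bears on the higher replication genes of replicate 1 was not tested. Without this library and the endothelial-rich Tcf21 P30 library, which leaves Postn P7 with 1 library that is assumed to vary like the others, Mcm2 (-0.40 ± 0.13), Uhrf1 (-0.56 ± 0.17) and E2f1 (-0.58 ± 0.18) were called lower in Postn P7.

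Some genes outside the 38 were called between the lines, against 6.52% higher and 5.49% lower of all genes tested. Of 20 nucleotide metabolism genes 0 were higher and 1 lower, and of 25 E2F network genes 1 was higher and 1 lower. Those calls were lost when any P7 library was left out. None of the 6 tested inhibitors of cyclin-dependent kinases was called. Of the 42 further replication genes 6 were higher and 1 lower in Postn P7, with a median of 0.17. Atad5, which unloads the clamp, had 17.7 and 14.7 CPM in Postn P7 and 7.96 and 6.29 CPM in Tcf21 P7 (1.19 ± 0.21, adjusted p = 0.016). Cdc7, the kinase that phosphorylates the MCM ring at the start of replication, had 27.4 and 30.5 CPM in Postn P7 and 14.6 and 11.9 CPM in Tcf21 P7 (1.13 ± 0.18, adjusted p = 0.011). The groups did not overlap in either gene. The lower gene was Rpa3, a subunit of replication protein A (-0.57 ± 0.15), which kept its call in 4 of the 16 alternatives. All 7 calls were lost without either Tcf21 P7 library, and 2 and 1 of the higher genes were called without Postn P7 replicate 1 and 2, and 3 without Tcf21 P30 replicate 3. Of the 24 mitosis genes 8 were higher, with Cenpe (1.49 ± 0.26) and Cenpf (1.40 ± 0.21), which act at kinetochores, at the top. That count was 4 and 3 without Postn P7 replicate 1 and 2, and 0 without either Tcf21 P7 library. The mitosis genes summed to 1069 and 959 CPM in Postn P7 and to 715 and 690 CPM in Tcf21 P7, a ratio of 1.44, whereas the ratio for the 38 replication genes was 0.948. The difference between these ratios was not tested.

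**Figure D4:**
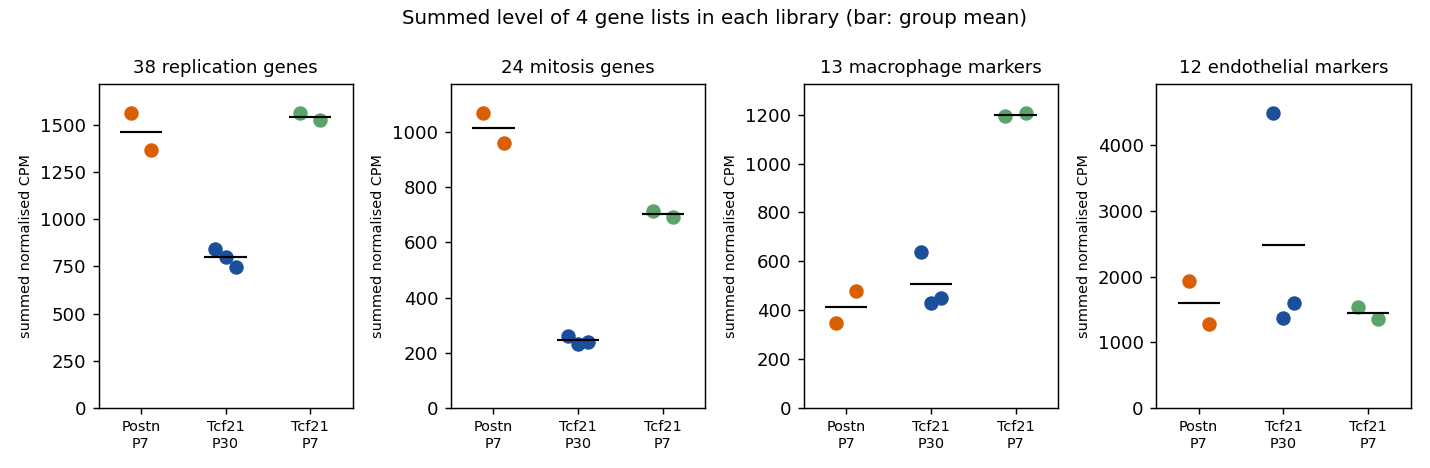
Summed normalised CPM of 4 gene lists in each library (points) with group means (bars), for Postn P7 (orange), Tcf21 P30 (blue) and Tcf21 P7 (green). The replication genes sum to 748 to 844 CPM in Tcf21 P30 and to 1368 to 1564 CPM in the 4 libraries of P7, the mitosis genes are highest in Postn P7, the macrophage markers are highest in Tcf21 P7 and the endothelial markers are highest in replicate 1 of Tcf21 P30.

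Postn P7 and Tcf21 P30 differed in both tracing line and age, which cannot be told apart in this comparison. Of the 38 genes 29 were higher in Postn P7 and none was lower, against 11.7% higher and 12.5% lower of all genes tested, and the median log2 change was 1.07. The Postn P7 libraries were above all Tcf21 P30 libraries for 34 of the 38 genes and below them for 0, against 24.7% and 25.9% of all genes tested. This comparison shares the Tcf21 P30 libraries with that of the ages. All calls were 2810 without Postn P7 replicate 1, against 4276 with all libraries (24.2% of genes). Postn P7 had 9.25 and 7.17 CPM of Mcm10, and Tcf21 P30 had 1.01, 0.951 and 1.76 CPM (2.71 ± 0.30, adjusted p = 0.00048), and Uhrf1 was higher by 2.21 ± 0.19. Ccne2 was higher by 1.16 ± 0.15. Orc1 and Prim1 passed the threshold here (adjusted p = 0.027 and 0.028). Orc1, Gins2 and Rfc4 lost the call without Postn P7 replicate 1 and without both endothelial-rich libraries. Prim1 and Cdc45 lost it in these fits too, without Tcf21 P30 replicate 3 and with a replicate block, and Prim1 also without Tcf21 P30 replicate 2. Rpa2 kept its call in 8 of the 16 alternatives. By contrast, Pcna (0.28 ± 0.12, adjusted p = 0.13), Chaf1a (0.28 ± 0.09, adjusted p = 0.061) and Gins1 (0.82 ± 0.26, adjusted p = 0.057) did not pass, although each was called in 1 or 2 of the 16 alternatives. Dut had 28.7 and 24.9 CPM in Postn P7 and 26.6, 28.5 and 23.2 CPM in Tcf21 P30, with overlapping groups and a log2 change of 0.04 ± 0.13.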

How the data were processed

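RNA of sorted cardiac fibroblasts was sequenced on an Illumina HiSeq instrument, per the labels' protocols. The authors deposited a single table in which each of the 7 libraries has a column of raw counts by symbol. The submitters' processing notes name STAR and GRCm38. The versions used, how counting was done, with which annotation and on which strand, are not given in the sources used here. Testing of the counts used edgeR 4.0.16 (R 4.3.3). Of 54735 symbols 21563 had no count, and filterByExpr kept 17636. Libraries were scaled by TMM, all 7 were fitted together by the robust quasi-likelihood method with a mean per group, and p-values were adjusted by Benjamini-Hochberg over all genes tested at 0.05. Standard errors were derived from the log2 change and its F statistic, and so restate the test. Levels are CPM of the scaled library. Called means an adjusted p under the threshold, and a gene is said to have risen or fallen only then. Levels per kilobase used the transcript with the longest coding sequence in GENCODE M21. This length was chosen after the summed exons and the median transcript had been tried and their values seen. Promoters came from RefSeq (GRCm38.p6), without the 50 bases after the start. The promoters shown were chosen after the matches were seen. The first choice, the 3 largest and the 3 smallest falls with age among genes with 1 window, held no E2F letters and was replaced. The second, the 6 genes with E2F letters in a single window, was reduced to 3 because the other windows reach into the annotated gene. The procedure was tried on counts simulated with known changes, drawn independently for each gene at the estimated spread. Such data hold no shared shifts between libraries, such as a differing content of other cell types. Alternatives used DESeq2 1.42.0, limma 3.58.1, other scalings, no filter, only the groups compared, a replicate block and omitted libraries.

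The 38 genes and the other lists were chosen with earlier results of these data known, and serve as description. Values in every library are given for, in each role, the most expressed gene and the called gene with the largest change with age, and for the genes nearest the threshold, while Dut, Orc1, Pola1 and Pola2 are described beside them because they were not called. Of each further list up to 4 called genes with the largest change are named. Rb1, Myc, Rrm2b, Orc3, Orc4 and Rpa3 were named after their values were seen, as the genes that moved against their list. Within every group the libraries varied beyond counting error (chi-squared per degree of freedom 3.43 to 38.1). The labels do not say that equal replicate numbers mark a shared litter or batch, and the numbers were not used as pairs.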

Additional observations from a re-analysis of the deposited data

How the results depend on the processing

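All 38 changes with age kept their sign under the 16 alternatives tried, a count that was not made for all genes. For 35 of the 38 the groups did not overlap, so leaving out libraries could hardly reverse the sign. Of the 31 calls with age 23 were kept under all 16 alternatives. The other 8 were lost under at least 1, and they were Gins1, Pcna, Rfc2, Rfc4, Rfc5, Tyms, Ccne1 and Ccne2. The 5 genes Orc1, Pola1, Pola2, Pold1 and Prim1 gained a call with age under at least 1. Of the 29 calls between Postn P7 and Tcf21 P30, 23 were kept under all alternatives and 6 were lost under at least 1, and 6 genes gained a call. Leaving out 1 library gave 23 to 32 lower genes with age, 0 to 1 higher gene between the tracing lines and 23 to 32 higher genes in Postn P7 than in Tcf21 P30. Between the lines 1 gene, Ccne2, was called higher with RLE, upper-quartile or library-size scaling, with limma-voom and with only the 2 groups fitted, and 3 genes were called lower without both endothelial-rich libraries. Of the 38 changes between the lines 18 changed sign under at least 1 alternative, in no case with a call for the opposite sign. The alternatives are tabulated gene by gene between the lines for 8 of the 38, chosen after these sign changes were seen. Of these 8, Uhrf1 changed sign, with -0.57 to 0.040 over the fits without 1 library. Dut, between Postn P7 and Tcf21 P30, was at -0.042 with the replicate block, at -0.068 to 0.13 over the fits without 1 library and at -0.055 without both endothelial-rich libraries. The number of all genes called between the ages ranged from 2418 to 6063 over the fits without 1 library (5604 as reported), between the lines from 111 to 3250 (2118 as reported), and between Postn P7 and Tcf21 P30 from 2810 to 5072 (4276 as reported). Between the lines it was 3442 with no filter and 3750 without both endothelial-rich libraries. Library size alone moved the median change of all genes between the lines by 0.113 on the log2 scale, and the median of the 38 genes was then 0.04. The cause of these shifts was not tested. With the replicate number as a block, 28 of the 38 genes were lower with age, 0 differed between the lines and 26 were higher in Postn P7 than in Tcf21 P30. Deviations of equally numbered libraries correlated with coefficients of 0.04 to 0.31. Low counts limit Orc1, Gins1, Mcm10 and Ccne1, and the smallest count of any of the 38 genes in a library was 6.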
